A study of Mus musculus with 4 samples.

Results

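Fibroblast growth factors (FGFs) and their receptors were followed in forelimbs of wild-type and Shox2 knockout mouse embryos, through 6 ligand genes and 4 receptor genes chosen by name. The apical ectodermal ridge, a thin strip of ectoderm along the distal rim of the limb bud, secretes FGF8 along its length and FGF4, FGF9 and FGF17 from part of it. These ridge ligands keep the mesenchyme beneath them growing and patterned, mainly through the mesenchymal forms of FGFR1 and FGFR2. The mesenchyme answers with FGF10, which binds the epithelial form of FGFR2 and maintains the ridge, so that the ligands of the 2 tissues sustain each other. FGF18 acts on skeletal precursors and FGFR3 restrains the growth of cartilage. All 10 genes had 1 probe set each among the 23185 named genes of the deposited table, and 9 of the 10 were bright enough to be tested.

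The limbs were forelimbs of C57BL/6 embryos at stage E11.5, either wild type or Shox2 knockout (SHOX2-KO in the labels). Shox2 encodes a homeodomain transcription factor required for the skeleton of the proximal part of the limb. Each genotype had 2 arrays, numbered 48 and 50 in the sample titles, and each array measured total RNA pooled within a genotype from 3 to 4 forelimbs per the sample labels, or from 3 to 4 embryos per the design text. The labels name neither the allele, the sex of the embryos nor the array type. The values are log2 expression, between 5.04 and 14.1 on every array, and there is no read depth for an array: n = 2 pools per genotype limits the precision throughout. All differences below are knockout minus wild type on the log2 scale, with the standard error of the moderated limma fit. These standard errors combine a gene's own spread between pools with a spread estimated from all tested genes. Which part of the spread is technical is not known.

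Between the genotypes 14095 genes were tested with limma, and 3 passed a Benjamini-Hochberg adjusted p under 0.05, all higher in the knockout. All of them are Y-linked (Eif2s3y, Uty and Kdm5d, with differences of 4.29, 4.15 and 3.48), and Xist, the RNA of the silenced X chromosome, differed by -1.01 (adjusted p = 0.217), so the pools also differed in sex-linked signal. Eif2s3y read 5.37 and 5.26 in the wild type and 9.56 and 9.65 in the knockout, so this signal ran with genotype on all 4 arrays. Its part in the FGF values was not tested and cannot be told apart from that of genotype. Shox2 averaged 10.47 in the wild type and 9.23 in the knockout (limma, adjusted p = 0.322). Its knockout readings of 9.58 and 8.88 were still at percentiles 87.0 and 80.9 of those arrays, and where the probes lie relative to the deleted part is not known here. Among markers of limb mesenchyme, Prrx1 read between 12.7 and 12.9 and Tbx5 between 12.2 and 12.5 over both genotypes. Among those of ectoderm, Krt14 read between 8.68 and 9.09 and Trp63 between 7.12 and 7.47. By their means, the 13 mesenchyme markers listed ranked between percentiles 60.1 and 99.9 of all probe sets. The 20 ectoderm markers listed ranked between percentiles 34.9 and 81.0, so some were dim. In whole-limb RNA, fewer cells of a type and less RNA per cell cannot be told apart.

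The levels are described first. Fgf8, the ligand made along the whole ridge, read 5.54 and 5.46 on the wild-type arrays 48 and 50, and 5.39 on both knockout arrays. This lay below the level of 5.60, percentile 40 of all probe sets, under which genes were not tested. By its mean over the 4 arrays Fgf8 stood at percentile 30.3 of all probe sets. It was the only one of the 10 genes under the filter. Sp6 and Sp8, transcription factor genes of the ectoderm and ridge, were likewise too dim to be tested, at percentiles 32.1 and 26.7. They were 2 of only 3 too dim among 21 listed regulators that link ridge and mesenchyme. The other 18 were bright enough, Trp63 of the ectoderm among them at percentile 67.4.

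Fgf4, a ligand of the posterior ridge, read 5.60 and 5.73 in the wild type and 5.81 and 5.83 in the knockout, and stood at percentile 45.8, just above the filter. Fgf17, a close relative of Fgf8, read 5.81 and 6.03 in the wild type and 6.13 and 6.44 in the knockout. Fgf9, the remaining ridge ligand, read 7.32 and 7.40 in the wild type and 7.55 and 7.44 in the knockout, at percentile 68.6. For Fgf4, Fgf9 and Fgf17 both knockout arrays lay above both wild-type arrays, and for Fgf8 both lay below. The genotypes were separated in this way in 42.0% of all tested genes, with the knockout above in 22.1% and below in 19.9%. Fgf8, under the filter, is not part of that count. The same shares stand beside the separations given below.

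Of the mesenchymal ligands, Fgf10 read 7.16 and 7.24 in the wild type and 7.34 and 7.30 in the knockout. Fgf18 read 9.33 and 9.09 in the wild type and 9.37 and 9.02 in the knockout. The Fgf10 arrays separated by genotype with a gap of 0.055, whereas those of Fgf18 separated by array number, since both arrays numbered 48 were above both numbered 50.

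Of the receptors, Fgfr1, the main receptor of the mesenchyme, read 10.70 and 10.65 in the wild type and 10.92 and 10.70 in the knockout. Fgfr2, used by mesenchyme and ectoderm in different splice forms, read 10.45 and 10.61 in the wild type and 10.57 and 10.38 in the knockout. By their means they ranked at percentiles 95.2 and 93.9. Fgfr3, a receptor of cartilage, read 6.73 and 6.68 in the wild type and 6.46 and 6.63 in the knockout. Fgfr4, known from muscle precursors in the limb, read 7.56 and 7.31 in the wild type and 7.36 and 7.04 in the knockout. Only Fgfr3 among the 4 receptors had genotypes that did not overlap, with the knockout below by a gap of 0.051. With 1 probe set per gene, splice forms were not measured apart. Brightness also depends on the probes, so the order of these readings is not an order of RNA amounts.

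**Figure D1:**
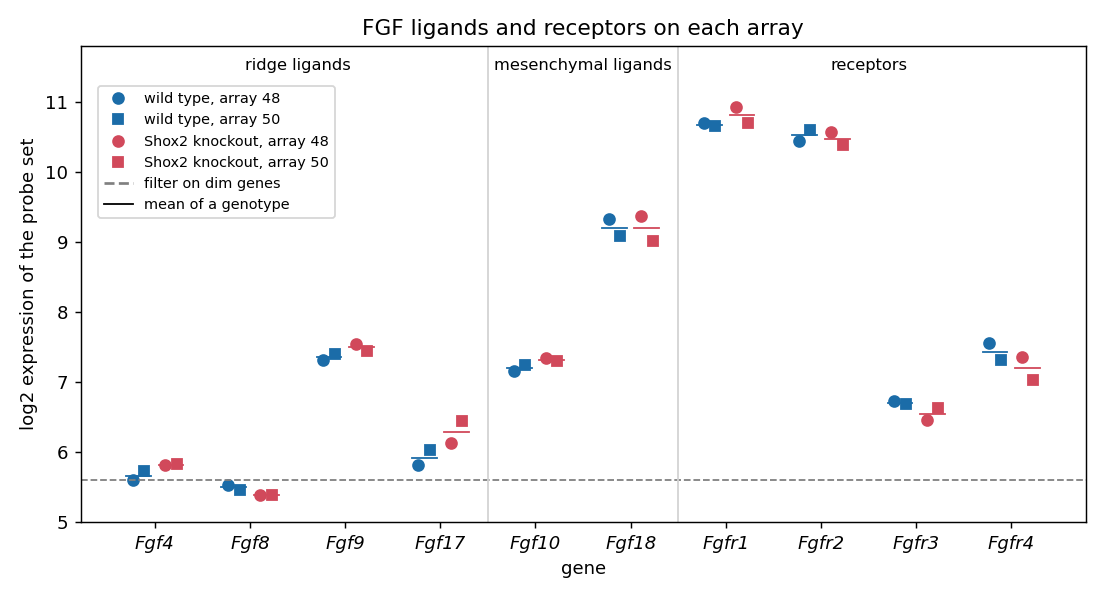
Log2 expression of the 10 FGF genes (vertical axis) on each array, by gene (horizontal axis); circles are arrays numbered 48, squares arrays numbered 50, blue is wild type and red Shox2 knockout, short lines are genotype means (n = 2) and the dashed line is the filter at 5.60. Fgf8 lies below the filter on all 4 arrays, while Fgfr1 and Fgfr2 lie above 10.3 on all 4.

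None of the 9 tested FGF genes changed between the genotypes in limma after adjustment over all genes, against 0.0213% of all tested genes. The smallest adjusted p among them was 0.432, and 1 of the 9 had an unadjusted p under 0.05, against 10.2% of all tested genes. All of the differences were small: the largest, that of Fgf17, corresponds to 1.29-fold. The 95% intervals, which are not adjusted, reached between 0.19 and 0.34 to either side of the estimate, or factors of 1.14 to 1.26. Changes of that size could thus not be told from none. After adjustment over all genes larger differences could also miss the threshold, as that of Shox2 did (-1.24, limma, adjusted p = 0.322). An exact permutation test of a single gene over these 4 arrays cannot give a two-sided p below 0.333.

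Ridge ligands gave 3 higher and 1 lower mean in the knockout, where 49.6% of all tested genes had a higher mean, with a median difference of 0.15 over the 4. Fgf17 averaged 5.92 ± 0.15 in the wild type and 6.28 ± 0.22 in the knockout (SD, n = 2 pools per genotype). Its difference of 0.36 ± 0.13 (SE) had a 95% interval from 0.051 to 0.68 before adjustment and did not pass (limma, adjusted p = 0.432). Ranked by unadjusted p it stood at place 935 of the 14095 genes. Fgf17 was higher on the arrays numbered 50 than on those numbered 48 within each genotype as well, by 0.22 in the wild type and 0.31 in the knockout.

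The difference of Fgf4 was 0.16 ± 0.085 (SE; limma, adjusted p = 0.583) and that of Fgf9 was 0.14 ± 0.085 (adjusted p = 0.627), with intervals from -0.045 to 0.36 and from -0.064 to 0.34. Fgf8 had a difference of -0.11 and no test at the main filter. When no gene was filtered out, limma gave Fgf8 an adjusted p of 0.565 and an unadjusted p of 0.0718. Near the bottom of the array's range a difference is compressed, so the values of Fgf8 and Fgf4 bound their change poorly. Fgf17, at percentile 54.0 by its mean, was also low, and the same may hold in part for its difference.

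Mesenchymal ligands and receptors were spread to both sides of 0. Fgf10 differed by 0.12 ± 0.081 (SE; limma, adjusted p = 0.657), with an interval from -0.075 to 0.31. Fgf18 differed by -0.0083 ± 0.14 (adjusted p = 0.992), with an interval from -0.34 to 0.33. Among the receptors, Fgfr1 had the only higher mean in the knockout, at 0.13 ± 0.099 (adjusted p = 0.692). Fgfr4 differed by -0.24 ± 0.14 (adjusted p = 0.600) and Fgfr3 by -0.16 ± 0.091 (adjusted p = 0.599). Fgfr2 differed by -0.048 ± 0.10 (adjusted p = 0.908). The median difference was 0.055 for the 2 mesenchymal ligands and -0.10 for the 4 receptors, beside -0.00098 for all tested genes. Leaving out 1 array at a time moved the first between -0.043 (without knockout array 48) and 0.15 (without knockout array 50), and the second between -0.12 and -0.013 (without knockout array 50). In all, the genotypes did not overlap in 5 of the 9 tested genes, against 42.0% of all tested genes. The knockout was above in 4 of them, against 22.1%, and below in 1, against 19.9%, and nothing is read from shares of so few genes.

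**Figure D2:**
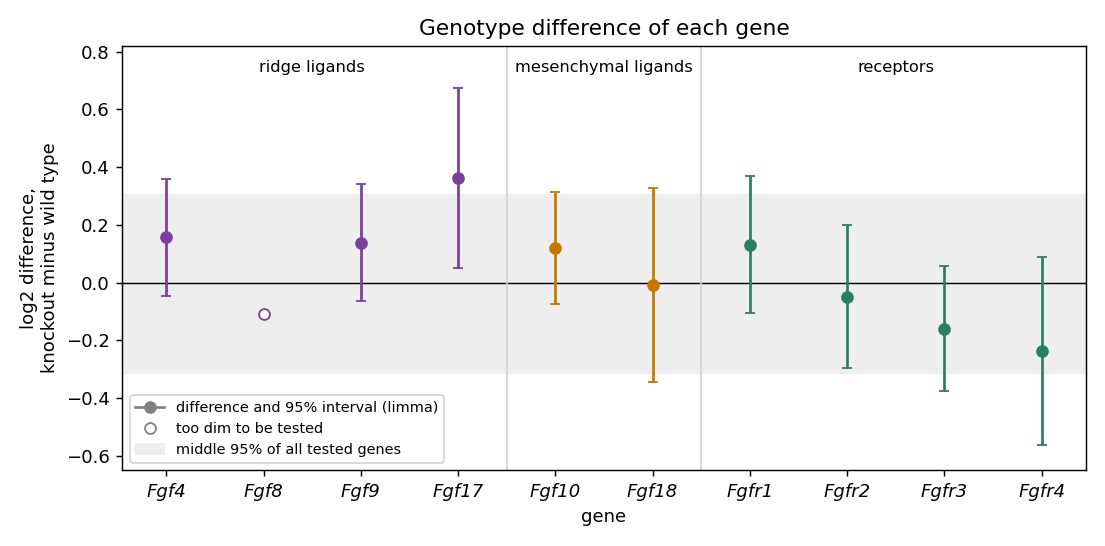
Log2 difference, knockout minus wild type (vertical axis), of each FGF gene (horizontal axis), with the 95% interval of the limma fit (n = 2 pools per genotype); the open circle is Fgf8, which was too dim to be tested, and the grey band holds the middle 95% of all tested genes, from -0.31 to 0.30. Fgf17 is the only one outside the band, and every other interval contains 0.

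The difference between the genotypes was also taken within each array number. Of the 9 tested genes, 7 had the same direction on number 48 and on number 50, where 63.1% of all tested genes did. Fgf17 differed by 0.32 in the former and 0.41 in the latter, and Fgfr4 by -0.20 and -0.28. In these genes the difference was slightly larger between the arrays numbered 50. Fgf9 differed by 0.23 and 0.047, Fgfr1 by 0.22 and 0.045, Fgf10 by 0.18 and 0.055, Fgf4 by 0.21 and 0.10, and Fgfr3 by -0.27 and -0.051, in each case less between the arrays numbered 50. Fgfr2 turned from 0.13 to -0.22 and Fgf18 from 0.048 to -0.064. The labels do not say whether a number marks a pregnancy or a batch.

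**Figure D3:**
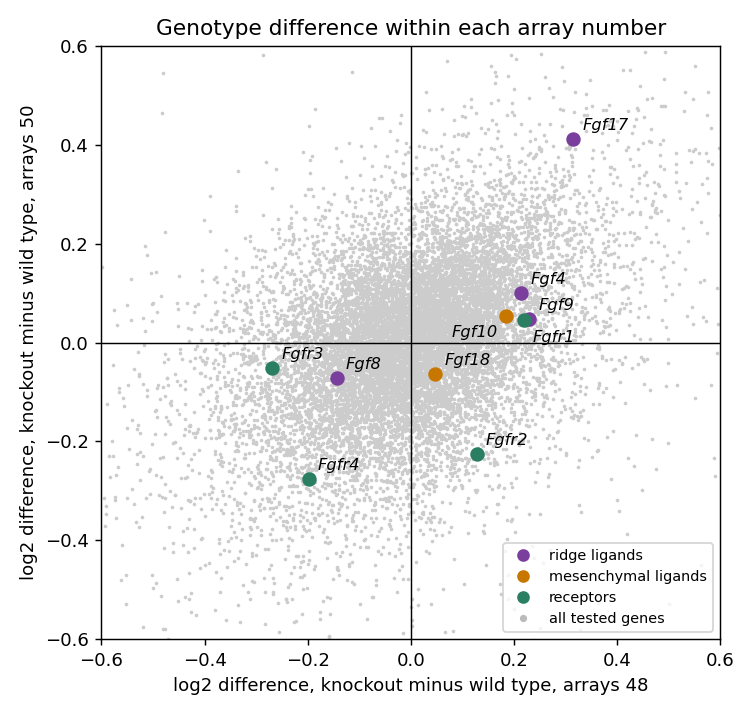
Log2 difference, knockout minus wild type, on number 48 (horizontal axis) and on number 50 (vertical axis), for the FGF genes (coloured by role) and all tested genes (grey; 188 lie beyond the axes at 0.6). Fgf17 lies in the upper right corner of the FGF genes, and Fgf18 and Fgfr2 lie in the quadrant where the numbers disagree.

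Ridge ligands are made by ectoderm, so its markers stand beside them. Of 20 ectoderm markers 19 were tested, 13 with higher and 6 with lower means in the knockout, with a median difference of 0.055 and 0 past limma's adjusted threshold. Their summed level on the linear scale was 2569 and 2767 in the wild type and 2746 and 2994 in the knockout, ranges that overlap, and Cldn7 was the only one too dim to be tested. The mean log2 level of the 4 ridge ligands was 6.07 and 6.16 in the wild type and 6.22 and 6.28 in the knockout. Taken within each array relative to the mean of the ectoderm markers, the ridge ligands stood at -0.65 and -0.63 in the wild type and at -0.52 and -0.57 in the knockout. The knockout was thus 0.090 higher on that relative scale. That mean covers unlike genes, from Fgf8 with a difference of -0.11 to Fgf17 with 0.36, and it was not taken without Fgf17. The part of the ectoderm in the ridge ligand values was not tested further.

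For Fgf10 and Fgfr1 the mesenchyme is the main source. Its 13 markers had a median difference of -0.016, and their summed levels of 34611 and 35680 in the wild type and 35750 and 34826 in the knockout overlapped. Muscle markers, which bear on Fgfr4, had a median of 0.066 over 11 genes, with summed levels of 8845 and 9754 in the wild type and 9666 and 9556 in the knockout. In that list 6 genes had higher and 5 lower means in the knockout. Pax3, Pax7 and Myf5 were among the lower, at -0.067, -0.046 and -0.10. Lbx1 and Met were among the higher, at 0.066 and 0.15. Cartilage markers, which bear on Fgfr3, had a median of -0.031 over 9 genes and summed levels of 5997 and 5027 in the wild type and 5971 and 5058 in the knockout. Both cartilage sums were higher on the arrays numbered 48. In contrast, 10 of 11 endothelium markers had lower means in the knockout, where 49.6% of all tested genes had a higher mean. Their median was -0.25, with summed levels of 5670 and 5736 in the wild type and 4943 and 5212 in the knockout, and 0 passed limma's adjusted threshold. Medians of the remaining marker lists were -0.13 for 8 erythroid genes, 0.059 for 5 neural genes and -0.018 for 4 macrophage genes. The part of these cell types in the FGF values was not tested.

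Beyond the 10 genes, the 16 remaining FGF family genes were all on the array, and 10 of them were bright enough to be tested. Fgf11, Fgf12, Fgf13 and Fgf14 among them encode intracellular homologues that are not secreted ligands. Of the 10 tested, 5 had higher and 5 lower means in the knockout, with a median of 0.020 and 0 past limma's adjusted threshold. Without those 4 intracellular genes, 4 had higher and 2 lower means, with a median of 0.074. Fgf2, a ligand without a classical secretion signal, read 6.94 and 7.29 in the wild type and 7.52 and 7.73 in the knockout. Both knockout arrays lay above both wild-type arrays, and the difference of 0.51 ± 0.14 (SE) was the largest among the FGF family genes tested, yet it missed the threshold (limma, adjusted p = 0.352). Like Fgf17, it was higher on the array numbered 50 in each genotype. Among these 10, Fgf22 came next by unadjusted p, at 0.18 (adjusted p = 0.615). Fgf7, which like Fgf10 signals to epithelia, differed by 0.091 (adjusted p = 0.900).

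The genes that carry the signal were represented by 16 of 22 listed names, and 13 were tested, 6 with higher and 7 with lower means (median -0.026, 0 past limma's adjusted threshold). Fgfbp3, a secreted FGF-binding protein gene, read 6.09 and 6.27 in the wild type and 6.43 and 6.73 in the knockout, a difference of 0.40 ± 0.12 (SE; limma, adjusted p = 0.397). It was the only gene of the 13 tested in this list with an unadjusted p under 0.05, against 10.2% of all tested genes. Map2k1, a kinase gene of the MAPK cascade, differed by -0.14 (adjusted p = 0.670). Fgfrl1, a receptor-like gene whose protein lacks the kinase, differed by 0.056 (adjusted p = 0.891). The klotho co-receptor genes Kl and Klb were too dim to be tested, at percentiles 29.5 and 21.4. Epithelial splicing regulators, which make the FGFR2 form that receives FGF10, also gave small values, with Esrp1 at 0.015 (adjusted p = 0.983), Esrp2 at -0.035 (adjusted p = 0.922) and the splicing factor gene Rbfox2 at 0.015 (adjusted p = 0.968).

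Genes switched on by FGF signalling, or restraining it, were divided. Of 15 tested, 9 had higher and 6 lower means, with a median of 0.043, and 0 passed limma's adjusted threshold. Etv1, a transcription factor gene of the ETS family, read 7.92 and 7.78 in the wild type and 8.39 and 8.06 in the knockout, a difference of 0.37 (adjusted p = 0.406). Spry1, a feedback inhibitor gene, read 8.96 and 8.76 in the wild type and 8.49 and 8.63 in the knockout (adjusted p = 0.415). Its relatives Spry2 and Spry4 had differences of the opposite sign, 0.19 and 0.12 (adjusted p = 0.611 and 0.745). Dusp6, a phosphatase gene induced by ridge FGFs, read 11.08 and 11.18 in the wild type and 10.91 and 11.00 in the knockout. Its difference was -0.18 (limma, adjusted p = 0.530). Among the ETS genes used as readouts of ridge FGFs, Etv4 differed by 0.019 (adjusted p = 0.960) and Etv5 by -0.28 (adjusted p = 0.604). The response genes showed neither a shared direction nor a called change.

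Heparan sulfate is the cell-surface sugar chain that FGFs need to bind their receptors. It is made, modified or carried by the products of 25 listed genes, of which 23 were tested. Of these, 7 had higher and 16 lower means, with a median of -0.039, and 0 passed limma's adjusted threshold. Hs6st2, a heparan sulfate sulfotransferase gene, read 8.04 and 7.98 in the wild type and 7.58 and 7.75 in the knockout, a difference of -0.34 ± 0.090 (SE; limma, adjusted p = 0.346). Sdc4, a heparan sulfate-bearing membrane protein gene, differed by -0.21 (adjusted p = 0.432). The genotypes did not overlap in 10 of the 23 genes, 5 in each direction, against 42.0% of all tested genes.

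Regulators that link ridge and mesenchyme had a median of 0.064 over 18 tested genes, 12 with higher and 6 with lower means, and 0 past limma's adjusted threshold. At an unadjusted p under 0.05 there were 4, all with higher means in the knockout, against 5.19% of all tested genes with that direction. These were Lhx2, a LIM homeobox gene of distal mesenchyme (0.45, adjusted p = 0.322), Msx1 (0.51, adjusted p = 0.405), Wnt5a (0.25, adjusted p = 0.415) and Msx2 (0.22, adjusted p = 0.437), the last pair named after their values were seen. Grem1, the BMP antagonist gene through which Shh upholds the ridge ligands, read 7.48 and 7.92 in the wild type and 7.35 and 7.66 in the knockout, a difference of -0.20 (adjusted p = 0.732). Shh differed by 0.18 (adjusted p = 0.549) at a level near the filter, and Bmp4 by -0.086 (adjusted p = 0.851).

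**Figure D4:**
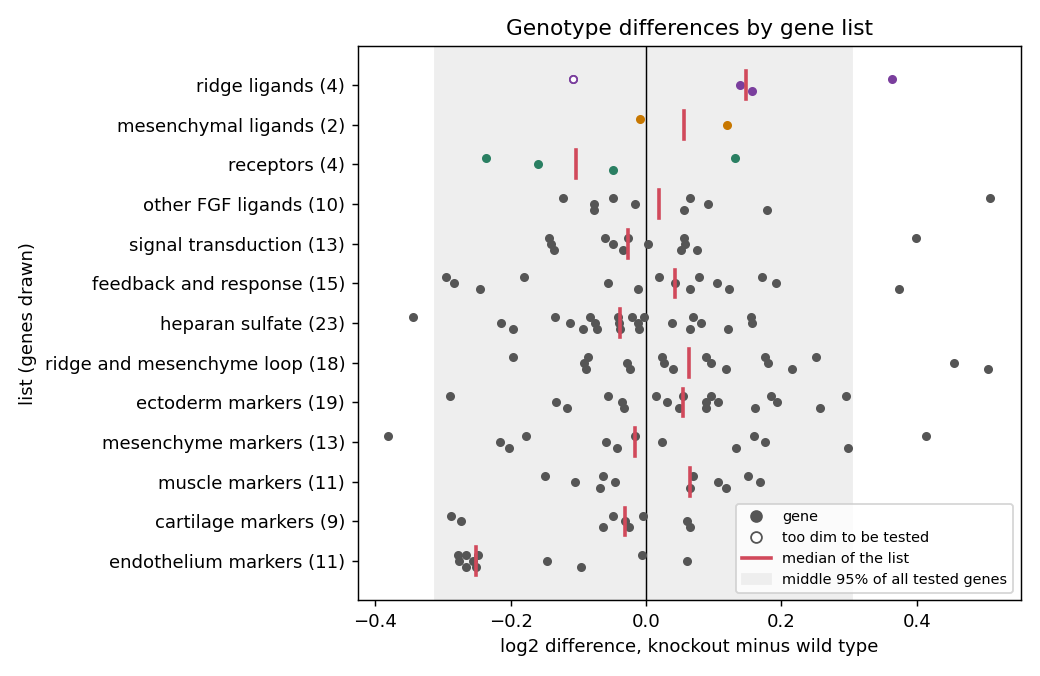
Log2 difference, knockout minus wild type (horizontal axis), of the genes of each list (vertical axis, with the number of genes drawn); points are genes, the open point is Fgf8, red lines are list medians and the grey band holds the middle 95% of all tested genes. The medians of the FGF lists lie between -0.10 and 0.15, and that of the endothelium markers lies at -0.25.

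Genes with the most similar profile were sought for the FGF genes that spanned at least 0.5 over the 4 arrays, Fgf17 (span 0.63) and Fgfr4 (span 0.52). Likeness was the root mean square distance between the deviations of the log2 values from each gene's mean. Nearest to Fgf17 were Mir1946a (0.015), Oxt (0.020) and Fmo1 (0.020), and 308 tested genes lay within 0.1 of it. Nearest to Fgfr4 were Sarnp (0.0040), Wbp2 (0.0099) and Gm10615 (0.010), and 662 lay within 0.1. Over 4 arrays neither profile was thus distinctive.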

How the data were processed

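The authors deposited a table of log2 expression values per probe set and array, made from pooled forelimb RNA with biotinylated cRNA, per the labels' protocols. The labels name neither the array type nor the background correction nor the probe summary. The sorted values of the 4 columns differed by at most 0.00171, which shows quantile normalization across arrays, so a change common to most genes is hidden. No further normalization was applied. Of 25206 probe sets, 23185 carried 1 gene symbol, 0 several and 2021 none. Groups and array numbers came from the sample titles.

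Named genes with a mean at or above percentile 40 were tested (14095; 9090 were too dim) with limma 3.58.1 (lmFit and eBayes, R 4.3.3), two-sided, without covariates, adjusted by Benjamini-Hochberg at 0.05. The procedure was tested on simulated data. Plots used matplotlib 3.10.9 in Python 3.11.15. The FGF genes, the lists and the naming rule were chosen with earlier results of these data known. Named were all 10 FGF genes, the check genes of the pools, 2 genes per list by smallest unadjusted p where none passed, and a fixed set of feedback, splicing and ridge genes. Fgf7, Fgf11 to Fgf14, Kl, Klb, Sp6, the cell type markers and genes said to be chosen after their values were seen fall outside it. Marker sums add the linear values of a list. Listed names without a named probe set were not analysed here. Alternatives were other filters, normalizations and variance models, a block for the array number, and each array left out.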

Additional observations from a re-analysis of the deposited data

How the results depend on the processing

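The counts of FGF genes called (0 of those tested) and of all genes called kept within 1.5 times of their values under most alternatives. The exceptions were the replicate block, with 382 genes called over all genes and 1 FGF gene, Fgf17 (limma, adjusted p = 0.0418), and leaving out any array but knockout array 50, with 5 genes called over all and 0 FGF genes. Without knockout array 50 there were 4 and 0. The array numbers are not stated to pair the pools. Across tested genes the change from 48 to 50 in the knockout correlated with that in the wild type at r = 0.388, which with 2 numbers does not establish a pairing. Over the other alternatives Fgf17 had adjusted p between 0.379 and 0.923, and it was too dim under the filter at percentile 60. With each array left out, its difference ran from 0.21 to 0.52, that of Fgfr4 from -0.40 to -0.075 and that of Fgfr1 from 0.020 to 0.24. Fgf18, at -0.18 to 0.17, and Fgfr2, at -0.14 to 0.048, changed sign. The median ran from 0.095 to 0.20 for ridge ligands, from -0.043 to 0.15 for mesenchymal ligands and from -0.12 to -0.013 for receptors, the last value without knockout array 50. The cause of these shifts was not tested. Where 1 array of a genotype remained, it was assumed to vary like the other genotype. The 2 pools per genotype and, for Fgf8, Fgf4 and in part Fgf17, the low signal limit what could be seen.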
